A study of Mus musculus with 35 samples.

Results

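Regulatory T cells (Tregs) of visceral adipose tissue (VAT) were compared between the hour at which the lights went off and the hour at which they came on, Zeitgeber time (ZT) 12 against ZT0. The comparison took every column of the gene count table that belonged to VAT at either time: 3 libraries at ZT12 (A, B and D) and 3 at ZT0 (A, B and C), which is 6 of the 35 libraries of the series. Of 55011 gene symbols in that table, 15910 had enough counts to be tested. Every library came from wild-type C57BL/6 males, retired from breeding and over 35 weeks of age, housed with lights on for 12 h and off for 12 h, and neither time carried a treatment. Each library was made from 1000 CD4+ CD25+ cells that had been sorted by flow cytometry in 2 passes. The remaining libraries, from VAT at the other 4 times and from spleen at all 6 times, entered the fit to estimate the spread between replicates, and spleen at ZT0 and ZT12 served as the tissue for contrast. Whether replicates are separate mice is not stated in the labels, and a p-value here sets a difference against the spread of these libraries, which can be technical.

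Tregs are CD4+ T cells that hold back immune responses, and those that live in visceral fat carry the receptor for the alarmin IL-33, the fat cell regulator PPARγ and the transcription factor GATA3. Cells of most tissues also run a circadian clock, in which the proteins BMAL1 (gene Arntl) and CLOCK bind E-box sequences and switch on their own repressors, the period and cryptochrome genes. The same pair drives the nuclear receptors REV-ERBα and REV-ERBβ (Nr1d1 and Nr1d2), which bind a half-site shared with the ROR receptors and repress Arntl in turn, and the PAR bZIP factors DBP, TEF and HLF, which act on D-box sequences. Mice are active in the dark, so ZT12 is the start of their active phase, when corticosterone and body temperature are also high.

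The 6 libraries held 3220775 to 5204898 counts, within the range of 2069319 to 6260185 over all 35, and mitochondrial transcripts made up 0.884% to 1.25% of them. Foxp3, which defines the lineage, was at 585 to 837 CPM (counts scaled to the library total after trimmed mean of M values), the IL-33 receptor gene Il1rl1 at 1350 to 1693 CPM, Pparg at 85.1 to 145 CPM, and Cd8a was at 0 in all 6. The 4 CD8 T cell markers together summed to 9.30 to 19.5 CPM at ZT0 and 16.2 to 40.6 CPM at ZT12, mostly Cd8b1. Of 12 marker lists for other cell types, 3 had summed levels that did not overlap between the times. Macrophage or monocyte markers summed to 7.70 to 15.5 CPM at ZT0 and 4.51 to 7.45 CPM at ZT12, with Fcgr1 at 0 in all 6 libraries. Erythroid markers summed to 1.45 to 2.50 CPM at ZT0 and 4.52 to 8.33 CPM at ZT12, with Hba-a2 and Hbb-bt at 0 in all 6. Stromal or mesothelial markers summed to 180.5 to 201 CPM at ZT0 and 204.5 to 219 CPM at ZT12, led by Gsn at a mean of 102 CPM. Other lists overlapped, such as neutrophil markers at 369 to 759 CPM at ZT0 and 152 to 459 CPM at ZT12. Those were led by Mmp9 at a mean of 441 CPM, with S100a8 and Elane at 0 in all 6. Conventional CD4 T cell markers, Il2 among them, summed to 40.4 to 77.3 CPM at ZT0 and 34.6 to 59.5 CPM at ZT12. They were led by Cd40lg at a mean of 52.9 CPM. The part of all these cells in the results was not tested.

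Very few genes differed between lights off and lights on. With edgeR's quasi-likelihood test and Benjamini-Hochberg adjustment over all genes, 8 of 15910 passed an adjusted p of 0.05, which is 0.0503%. At ZT12, 6 were higher (Tef, Zfp1, Egr1, Tsc22d3, Serinc3 and Adgre5) and 2 were lower (Arntl and Ltb), and 4 of them, Tef, Zfp1, Egr1 and Arntl, differed by at least 2-fold. For each of the 8, all 3 libraries of one time lay above all 3 of the other, a separation that 4.58% of all tested genes showed with ZT12 on top and 5.47% with ZT12 below. At an unadjusted p under 0.05 there were 1078 genes (6.78%), 501 higher and 577 lower. Over all genes the median log2 fold change (ZT12 minus ZT0) was -0.01 and its median standard error (SE) 0.39. Among the 2299 genes with a mean of at least 100 CPM that SE fell to 0.15, so modest differences were harder to detect in low genes. In these bulk libraries, fewer cells of a kind and less RNA per cell cannot be told apart.

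The number of called genes rested on single libraries and on the tool. The count was 2 without ZT0 A (1 of them among the 8), 0 without ZT0 B (935 at an unadjusted p under 0.05), 4 without ZT0 C (2 among the 8), 5 without ZT12 A (3), 1 without ZT12 B (1) and 13 without ZT12 D (7). DESeq2 called 34 genes on the same libraries, all 8 among them, while the 6 libraries alone gave 0 in edgeR (507 at an unadjusted p under 0.05). Over 16 alternative analyses Adgre5 passed in 12, Tef and Zfp1 in 11 each, Arntl in 9, Egr1, Tsc22d3 and Ltb in 7 each and Serinc3 in 6.

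**Figure D1:**
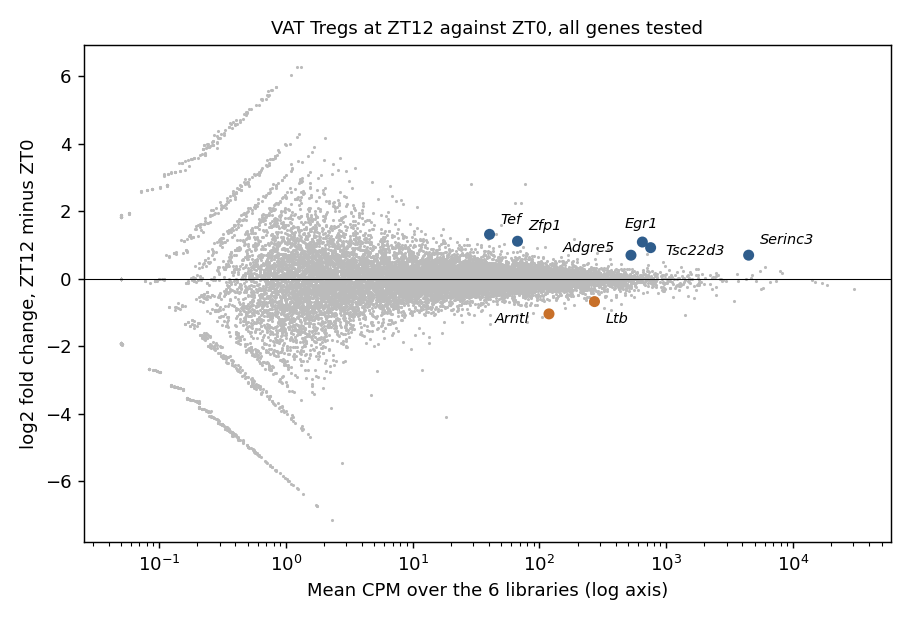
Log2 fold change between ZT12 and ZT0 in VAT Tregs (vertical axis) against mean CPM over the 6 libraries (log horizontal axis), 1 point per tested gene, with genes past an adjusted p of 0.05 in blue (higher at ZT12) or orange (lower). The coloured genes run from a mean of 40.5 CPM (Tef) to 4472 CPM (Serinc3), and genes of the lowest CPM scatter most without passing the test.

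The clock genes Tef and Arntl moved in opposite directions. Tef, which encodes a PAR bZIP activator downstream of the clock (chromosome 15, 81802421 to 81826863, GRCm38), was at 22.2, 26.8 and 20.6 CPM in the ZT0 libraries A, B and C and at 51.5, 72.3 and 49.3 CPM in the ZT12 libraries A, B and D. The lowest ZT12 library was well above the highest ZT0 library. Its log2 fold change was 1.31 ± 0.24 (SE), with an adjusted p of 0.0153 in edgeR. Arntl, the gene of BMAL1 (chromosome 7, 113207465 to 113314126, GRCm38), was at 154, 160.4 and 166 CPM at ZT0 and at 53.4, 89.3 and 91.3 CPM at ZT12. The 3 ZT0 libraries lay close together and the ZT12 libraries all fell below them, library A furthest. The fall was -1.04 ± 0.20 on the log2 scale (adjusted p = 0.0209, edgeR).

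Over the 6 sampled times, ZT0 and ZT12 were at the ends of the daily range for Arntl but not quite for Tef. Mean Arntl was highest at ZT0 (160.2 ± 5.92 CPM, SD, n = 3) and lowest at ZT12 (78.0 ± 21.3 CPM), with the other 4 times between 99.7 and 108 CPM. Mean Tef was highest at ZT12 (57.7 ± 12.7 CPM), close to ZT8 (52.9 ± 5.30 CPM), and its lowest mean was at ZT20 (18.2 CPM over 2 libraries), with ZT0 next at 23.2 ± 3.19 CPM. The means of Tef at ZT8 and ZT12 differed by less than the spread between replicates.

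The promoters of these 2 clock genes are shown because the clock acts on its targets through short motifs. Sequences are from RefSeq (GRCm38.p6), which matched 6 of the 8 called genes (not Egr1 and Adgre5), and each window runs from 250 bases before to 50 bases after a start site, 5′ to 3′. Capitals mark matches on either strand to CACGTG (E-box), TTANGTAA (D-box), AGGTCA (ROR and REV-ERB half-site) or ACANNNTGT (core of the glucocorticoid receptor element), motifs that do not overlap one another here. Both start sites of Tef, at chr15:81802423-81802722 and chr15:81811164-81811463 (plus strand), hold 1 E-box, at -127 and -138 from the start. Start site 2 of Arntl, at chr7:113207261-113207560 (plus strand), holds 1 half-site at +32, and start site 1, whose window overlaps it, holds none of the 4 motifs.
Tef, start site 1: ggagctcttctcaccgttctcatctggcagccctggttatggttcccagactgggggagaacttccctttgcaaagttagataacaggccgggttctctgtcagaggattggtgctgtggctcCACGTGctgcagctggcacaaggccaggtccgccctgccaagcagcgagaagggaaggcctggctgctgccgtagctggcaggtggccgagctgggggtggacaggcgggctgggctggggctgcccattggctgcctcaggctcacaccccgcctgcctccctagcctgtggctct
Tef, start site 2: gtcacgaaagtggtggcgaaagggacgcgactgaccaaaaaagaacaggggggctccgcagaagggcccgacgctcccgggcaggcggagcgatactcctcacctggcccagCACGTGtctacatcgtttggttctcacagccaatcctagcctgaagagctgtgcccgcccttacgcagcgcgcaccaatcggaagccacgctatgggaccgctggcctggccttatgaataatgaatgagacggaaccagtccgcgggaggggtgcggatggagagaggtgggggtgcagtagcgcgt
Arntl, start site 2: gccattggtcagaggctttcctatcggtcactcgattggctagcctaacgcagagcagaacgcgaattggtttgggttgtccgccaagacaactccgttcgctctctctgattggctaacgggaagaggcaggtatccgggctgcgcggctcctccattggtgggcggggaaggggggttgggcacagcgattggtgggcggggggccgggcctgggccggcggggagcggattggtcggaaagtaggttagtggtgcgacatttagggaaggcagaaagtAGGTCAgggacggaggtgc
Of 32851 such windows over 27025 genes, 7.15% hold CACGTG, 2.32% TTANGTAA, 16.3% AGGTCA and 6.85% ACANNNTGT. Among the other called genes, Serinc3 had 2 matches to ACANNNTGT, at -240 and -173, and the windows of Ltb, Zfp1 and Tsc22d3 held no match to any of the 4 motifs. A match describes these letters and is not a bound site.

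**Figure D2:**
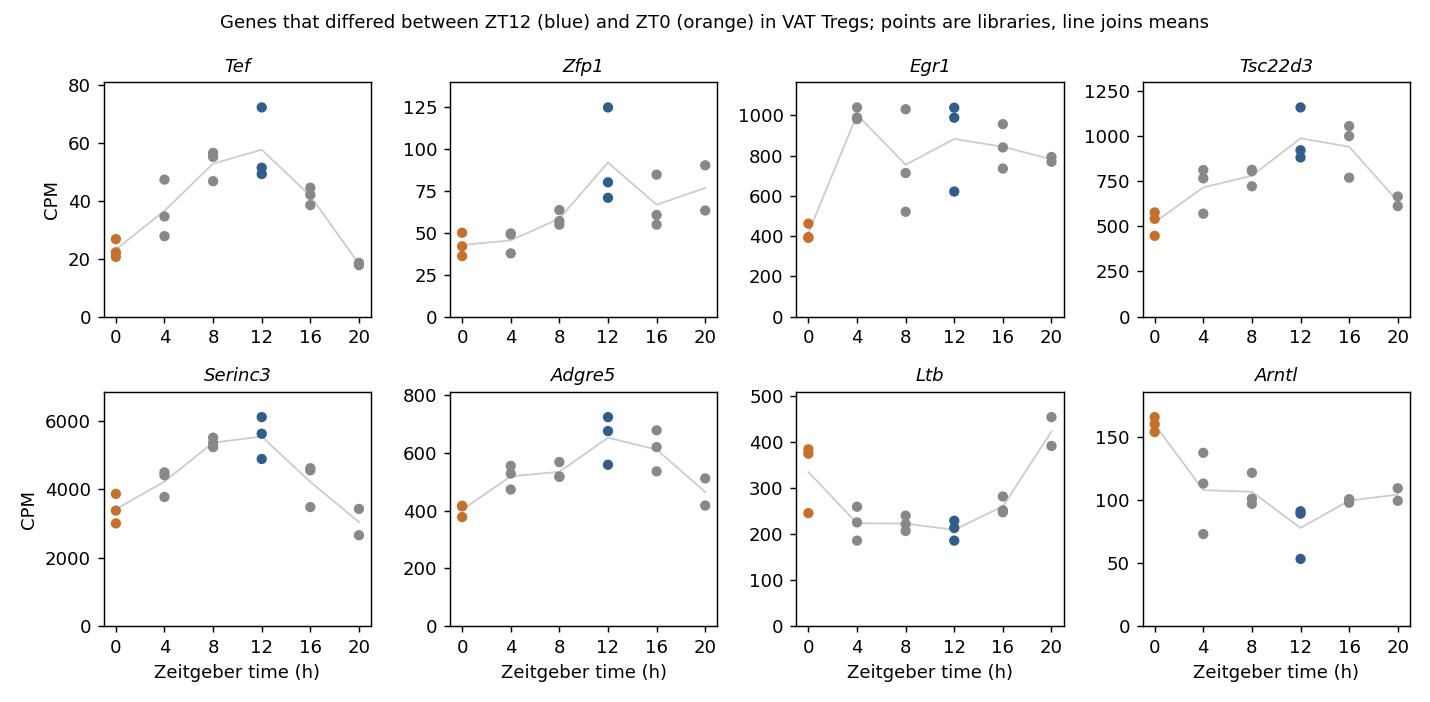
CPM of the 8 genes that differed between ZT12 (blue) and ZT0 (orange) in VAT Tregs, 1 point per library at each Zeitgeber time in hours, with a grey line through the means of the 6 times. At ZT0 Egr1 lies at 391 to 461 CPM, below every library of the other times, and Arntl at 154 to 166 CPM, above them all.

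The repressors of the clock were higher at ZT12 in several cases, without passing the threshold. Of 19 measured core clock genes, Tef rose, Arntl fell and 17 did not pass, and the list's median log2 fold change was 0.25 against -0.01 over all genes. In 5 members all ZT12 libraries were above all ZT0 libraries (Tef, Per2, Per1, Nr1d1 and Ciart) and in 2 below (Arntl and Bhlhe40). Those counts stand beside 4.58% and 5.47% of all genes.

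Per2, a repressor of BMAL1 and CLOCK, was at 0.999, 0.308 and 0.291 CPM at ZT0 and at 3.26, 6.12 and 6.94 CPM at ZT12. It came to 64 counts over the 6 libraries and to as few as 1 in a single library, so its fitted log2 fold change of 3.20 ± 0.67 depends on the prior count of the fit (adjusted p = 0.0519, edgeR). All ZT12 libraries were above all ZT0 libraries, and Per2 passed with library totals in place of the scaling factors, with no filter on low counts, in DESeq2 and without ZT12 library A. Per1, the partner repressor that glucocorticoids also induce, was at 158, 167 and 155 CPM at ZT0 and at 267, 215 and 232 CPM at ZT12. The log2 fold change of Per1 was 0.57 ± 0.15 (adjusted p = 0.225, edgeR), with no overlap between the times, and Per1 passed in DESeq2.

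Nr1d1, the gene of REV-ERBα, was at 6.00, 18.2 and 12.2 CPM at ZT0 and at 36.1, 23.1 and 23.6 CPM at ZT12. The times did not overlap, but the ZT0 libraries spread widely (log2 fold change 1.20 ± 0.39, adjusted p = 0.474, edgeR). Its paralog Nr1d2 had a log2 fold change of 0.95 ± 0.48, and the times overlapped because ZT0 library C (79.1 CPM) was above ZT12 library A (49.1 CPM). Ciart, a repressor of the BMAL1 and CLOCK pair, averaged 4.94 ± 2.04 CPM at ZT0 and 11.9 ± 3.36 CPM at ZT12 (SD, n = 3), which gave a log2 fold change of 1.27 ± 0.64. The difference in Ciart had an adjusted p of 0.734 in edgeR.

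The period gene Per3 was at 12.2, 14.5 and 29.4 CPM at ZT0 and at 24.8, 38.3 and 49.3 CPM at ZT12 (log2 fold change 1.00 ± 0.37). ZT0 library C was above ZT12 library A, so the times overlapped. Bhlhe40, a repressor that competes for E-boxes, was at 94.2, 74.2 and 65.7 CPM at ZT0 and at 43.2, 51.0 and 51.4 CPM at ZT12 (log2 fold change -0.69 ± 0.39, adjusted p = 0.762, edgeR). Its relative Bhlhe41 was close to 0 at ZT0 with 28 counts over the 6 libraries. Nfil3, a repressor at D-boxes, averaged 166 ± 39.6 CPM at ZT0 and 82.5 ± 47.0 CPM at ZT12 (SD, n = 3, adjusted p = 0.694, edgeR), and ZT12 library A (132 CPM) was above ZT0 library C (121 CPM).

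The remaining clock genes overlapped between the times. Clock, the partner of BMAL1, had a log2 fold change of 0.04 ± 0.22, and Npas2, which can replace it, -0.96 ± 0.93. The cryptochrome repressors Cry1 and Cry2 were at -0.34 ± 0.25 and 0.55 ± 0.34. The activator Rora, which competes with the REV-ERB proteins, was at -0.14 ± 0.16. The PAR bZIP genes Dbp and Hlf were at 0.25 ± 0.39 and 0.15 ± 0.50 while their relative Tef rose.

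**Figure D3:**
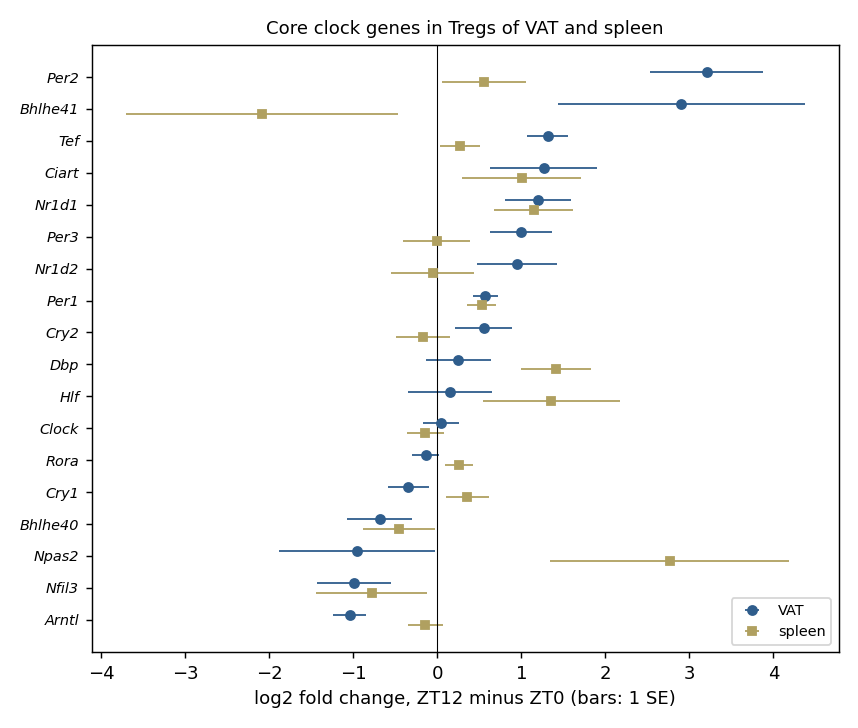
Log2 fold change between ZT12 and ZT0 of 18 of the 19 measured core clock genes in Tregs of VAT (blue circles) and spleen (tan squares), with bars of 1 SE. In VAT Per2, Bhlhe41, Tef, Ciart and Nr1d1 lie above 1 and Arntl below -1, and for none of those plotted did the difference between tissues pass the threshold.

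Egr1, an immediate early transcription factor induced by receptor signalling (chromosome 18, 34859823 to 34864984, GRCm38), was at 395, 461 and 391 CPM at ZT0 and at 1038, 988 and 621 CPM at ZT12. ZT12 library D was closest to the ZT0 libraries and still above them. The log2 fold change of Egr1 was 1.09 ± 0.19, with an adjusted p of 0.0144 in edgeR. Across the day ZT0 stood apart rather than ZT12: the highest mean was at ZT4 (1003 ± 31.4 CPM, SD, n = 3), and the lowest library at any time other than ZT0 was at 521 CPM.

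Of the 22 immediate early genes measured, Egr1 alone passed, and the median log2 fold change of the list was -0.05. Among those that did not pass, Egr2 and Ier3 had all ZT12 libraries above ZT0, and Nr4a3, Junb and Fosl2 had all of them below. With Egr1, 3 members were above and 3 below, against 4.58% and 5.47% of all genes. Junb, a subunit of the AP-1 factor, was at 20998, 19661 and 19087 CPM at ZT0 and at 17559.8, 16034 and 18867 CPM at ZT12. ZT12 library D came close to ZT0 library C, and the log2 fold change was -0.19 ± 0.13. Members named in this and the following paragraphs because their times did not overlap were picked after their values were seen.

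Tsc22d3, which encodes the glucocorticoid-induced leucine zipper GILZ (chromosome X, 140539528 to 140600659, GRCm38), was at 447, 577 and 541 CPM at ZT0 and at 1158, 921 and 881 CPM at ZT12. All ZT12 libraries exceeded all ZT0 libraries. The rise of 0.92 ± 0.19 on the log2 scale had an adjusted p of 0.0494 in edgeR, just inside the threshold. The highest daily mean was at ZT12 (986 ± 150 CPM) and the lowest at ZT0 (521 ± 67.0 CPM, SD, n = 3).

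Of 19 measured glucocorticoid-responsive genes, Tsc22d3 rose, and 13 had a positive and 6 a negative log2 fold change, with a median of 0.20. At an unadjusted p under 0.05 there were 7 higher and 1 lower, against 6.78% of all genes in either direction. Tsc22d3, Per1, Il7r, Fkbp5, Klf9 and Cxcr4 had all ZT12 libraries above ZT0, so 6 members did so against 4.58% of all genes. Per1 is also in the clock list, and Il7r in the list of FoxO and fasting-responsive genes. Il7r, the interleukin-7 receptor, was at 761, 799 and 778 CPM at ZT0 and at 1161, 992 and 1129.9 CPM at ZT12 (log2 fold change 0.49 ± 0.14, adjusted p = 0.317, edgeR). Fkbp5, a cochaperone of the glucocorticoid receptor, averaged 76.8 ± 4.59 CPM at ZT0 and 119 ± 26.9 CPM at ZT12 (0.63 ± 0.22). Nr3c1, the receptor itself, was at 562, 508 and 583 CPM at ZT0 and at 392, 489 and 496 CPM at ZT12, all below (-0.26 ± 0.12, adjusted p = 0.694). Other members showed no such separation, among them Dusp1 (-0.10 ± 0.16), Sgk1 (-0.12 ± 0.28) and the metallothionein gene Mt1 (0.03 ± 0.49). DESeq2 called Per1, Tsc22d3 and Txnip, and edgeR called Txnip with no filter on low counts and without ZT12 library D. Another member, Pik3ip1, also passed without ZT12 library D.

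The other 4 called genes belonged to none of the 24 lists. Zfp1, a zinc finger protein gene (chromosome 8, 111643401 to 111671011, GRCm38), was at 50.0, 41.9 and 36.0 CPM at ZT0 and at 125, 80.0 and 70.8 CPM at ZT12. ZT12 library A was the highest, and the log2 fold change of Zfp1 was 1.11 ± 0.20 (adjusted p = 0.0144, edgeR). Serinc3, a membrane protein of the serine incorporator family (chromosome 2, 163623272 to 163645131), was at 3000.4, 3374 and 3862 CPM at ZT0 and at 4879, 5616 and 6101 CPM at ZT12. The increase of Serinc3 was 0.70 ± 0.14 (adjusted p = 0.0454, edgeR), without overlap.

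Adgre5, the adhesion receptor CD97 of leukocytes (chromosome 8, 83723251 to 83741326), was at 378, 417 and 415 CPM at ZT0 and at 675, 724 and 559 CPM at ZT12. The groups were tight, and the log2 fold change of 0.70 ± 0.12 had an adjusted p of 0.0144 in edgeR. Ltb, the gene of lymphotoxin β, a membrane cytokine of the TNF family that shapes lymphoid tissue (chromosome 17, 35194439 to 35196320), was at 384, 375 and 246 CPM at ZT0 and at 213, 186 and 229 CPM at ZT12. ZT0 library C lay near the ZT12 libraries, and Ltb fell by 0.68 ± 0.14 on the log2 scale (-0.68, adjusted p = 0.0454). Its daily mean was highest at ZT20 (423 CPM over 2 libraries), with ZT0 next at 335 ± 77.4 CPM.

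Chaperone genes of the endoplasmic reticulum were mostly lower at ZT12, though none passed the test. The unfolded protein response is the program that raises folding capacity in that compartment. Of 18 measured members, 8 had all ZT12 libraries below all ZT0 libraries against 5.47% of all genes, and none had them all above. Those 8 were Hsp90b1, Calr, Pdia6, Sdf2l1, Xbp1, Dnajc3, Hspa5 and Pdia4, and the median log2 fold change of the list was -0.20. At an unadjusted p under 0.05 there were 1 higher and 7 lower, and DESeq2 called Hsp90b1. Members of a list can vary together between libraries, so such counts carry no test.

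Hsp90b1, the chaperone GRP94, was at 642, 704 and 639 CPM at ZT0 and at 421, 434 and 511 CPM at ZT12. No library overlapped, and the log2 fold change was -0.54 ± 0.12 (adjusted p = 0.0996, edgeR). It passed in 4 of 16 alternative analyses. Hspa5, the chaperone BiP, was at 1449.6, 1344 and 1275 CPM at ZT0 and at 1185, 1113 and 1189.9 CPM at ZT12 (-0.22 ± 0.11). Calr, the lectin chaperone calreticulin, was at 287, 288 and 299.9 CPM at ZT0 and at 228, 227 and 233 CPM at ZT12 (-0.35 ± 0.12). Xbp1, the transcription factor of the response, averaged 297 ± 9.66 CPM at ZT0 and 239 ± 30.9 CPM at ZT12 (-0.32 ± 0.13).

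Genes of the heat shock list leaned the same way. Of 20 heat shock genes, 16 had a negative log2 fold change and 0 passed (1 higher and 3 lower at an unadjusted p under 0.05, and 0 in DESeq2). Hsp90ab1, Fkbp4, Stip1, Ahsa1 and Chordc1, which are HSP90 and its cochaperones, had all ZT12 libraries below ZT0. Those are 5 members, against 5.47% of all genes, and 1 member had them all above, against 4.58%. Hsp90ab1 was at 2816, 3338 and 2554 CPM at ZT0 and at 2101, 1849 and 2275 CPM at ZT12 (-0.48 ± 0.13, adjusted p = 0.225, edgeR). Hspa1a, a stress-induced HSP70, went against them, at 2.00, 1.85 and 3.49 CPM at ZT0 and 8.90, 9.31 and 18.7 CPM at ZT12. Its fitted change was 2.31 ± 0.77, and reads shared with its near-identical copy Hspa1b make that value uncertain.

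Of the 3 genes listed as cold-inducible, Rbm3 and Cirbp had all ZT12 libraries above ZT0, against 4.58% of all genes. Both encode RNA-binding proteins that respond to mild cooling. Rbm3 was at 181, 149.9 and 168 CPM at ZT0 and at 248, 214 and 236 CPM at ZT12 (log2 fold change 0.48 ± 0.12, adjusted p = 0.146, edgeR). Rbm3 did not pass here but did in DESeq2. Cirbp had a log2 fold change of 0.63 ± 0.21 and the splicing factor gene Srsf5 -0.16 ± 0.13.

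**Figure D4:**
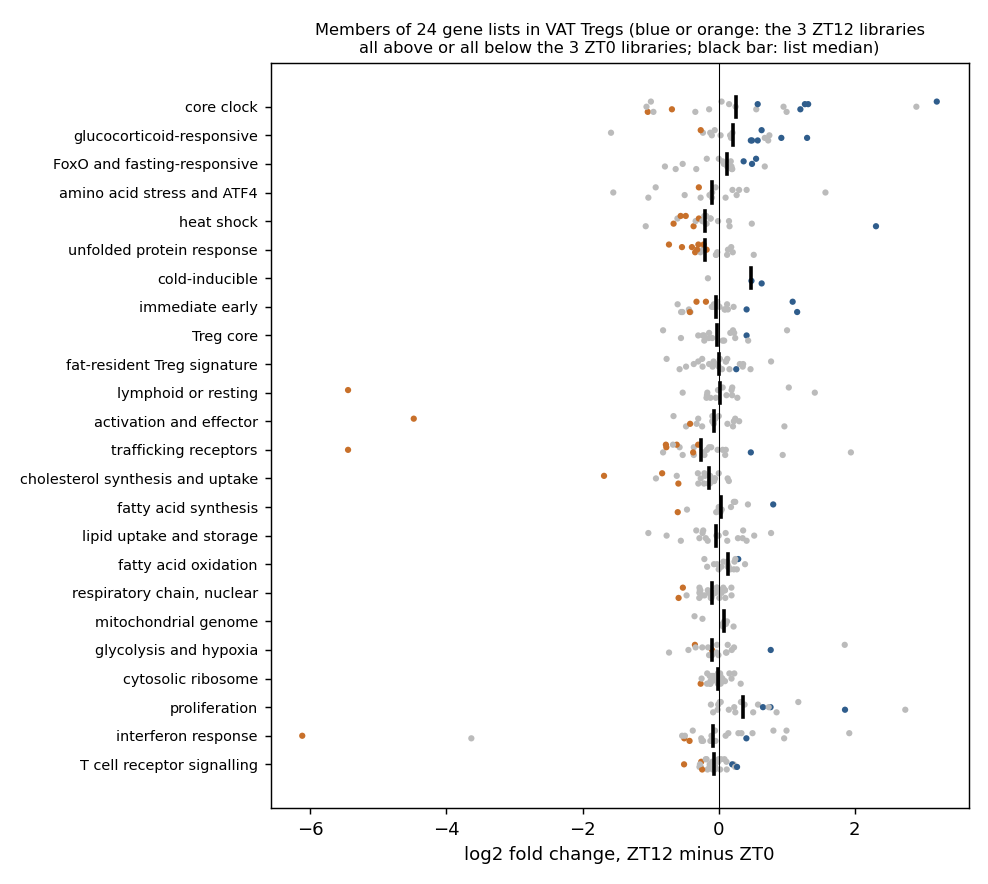
Log2 fold change between ZT12 and ZT0 in VAT Tregs for every measured member of 24 gene lists, 1 point per gene, in blue or orange where the 3 ZT12 libraries lay all above or all below the 3 ZT0 libraries, with a black bar at each list's median. Chaperone lists sit mostly left of 0 (medians of -0.20 in both), proliferation to the right (0.35), and far-left points are genes near 0 CPM at ZT12.

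No identity gene of Tregs, or of Tregs in fat, passed the test. Of 18 Treg core genes 0 passed, 9 leaned each way and the median log2 fold change was -0.02. Foxp3 was at -0.14 ± 0.12, the inhibitory receptor gene Ctla4 at -0.15 ± 0.13 and the Ikaros family gene Ikzf2 at 0.08 ± 0.14. Il2ra, the CD25 chain of the interleukin-2 receptor and a marker of the sort, was at 559.6, 589 and 689 CPM at ZT0 and at 751, 739.9 and 949.8 CPM at ZT12. Its log2 fold change was 0.41 ± 0.12 (adjusted p = 0.323, edgeR). It was the 1 gene of these 18 without overlap, against 4.58% of all genes with ZT12 on top. It was also the 1 at an unadjusted p under 0.05, against 6.78% of all genes, and 0 were called by DESeq2.

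In the list of 24 genes of fat-resident Tregs the median was 0.01 and 0 passed (0 higher and 1 lower at an unadjusted p under 0.05, 0 in DESeq2). Il1rl1 was at 0.02 ± 0.22, Gata3 at 0.13 ± 0.14, Pparg at 0.16 ± 0.40, the growth factor gene Areg at 0.05 ± 0.41 and the inhibitory lectin receptor gene Klrg1 at -0.05 ± 0.27. The SEs set how small a change could be seen: that of Gata3 is a fraction of those of Pparg and Areg.

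Receptors for migration leaned lower at ZT12. Of 24 trafficking receptors 18 had a negative log2 fold change, the median was -0.26, and 0 passed (0 higher and 4 lower at an unadjusted p under 0.05, and Cxcr5 in DESeq2). All ZT12 libraries were below ZT0 for Cxcr5, Gpr183, Itgb1, Ccr9, Ccr4 and Ccr6, and above for Cxcr4. Those are 6 members and 1, against 5.47% and 4.58% of all genes. The log2 fold change of Ccr6 changed sign in 2 of 16 alternative analyses. Ccr9, the gut-homing chemokine receptor, was at 212, 264 and 239 CPM at ZT0 and at 106, 177 and 135 CPM at ZT12. That was a log2 fold change of -0.78 ± 0.50, with an adjusted p of 0.799 in edgeR. Gpr183, a receptor for oxysterols that guides cells in lymphoid tissue, was at 66.4, 109.6 and 59.0 CPM at ZT0 and at 49.5, 56.1 and 47.2 CPM at ZT12 (-0.62 ± 0.20, adjusted p = 0.470, edgeR).

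Some genes were close to absent at ZT12. Cxcr5, the receptor for B cell follicles, was at 2.75, 7.70 and 5.81 CPM at ZT0 and at 0, 0.266 and 0 CPM at ZT12. The cytokine gene Il2, also a listed marker of conventional CD4 T cells, was at 3.00, 3.08 and 1.74 CPM at ZT0. At ZT12 Il2 was at 0.217, 0 and 0 CPM. The interferon-induced gene Oasl2 was at 3.75, 2.46 and 0.581 CPM at ZT0 and at 0 in every ZT12 library. None of these passed with the filter on low counts in edgeR (adjusted p of 0.250 for Cxcr5). Oasl2 passed with no filter and in DESeq2, and Cxcr5 in DESeq2. Their fitted fold changes depend on the prior count and are not given, and a negative value of any size below a list's median leaves that median as it is. Integrin β7 (Itgb7), the abundant partner of integrin α4, ranged from 877 to 4311 CPM among the ZT12 libraries, so its log2 fold change of -0.67 ± 0.56 was within the spread of replicates.

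Metabolic genes gave no call. Of 24 genes of cholesterol synthesis and uptake, 21 had a negative log2 fold change with a median of -0.15 and 0 passed (0 higher and 2 lower at an unadjusted p under 0.05, 0 in DESeq2). Sqle, the squalene epoxidase, was at 118, 107 and 138 CPM at ZT0 and at 48.6, 96.8 and 96.1 CPM at ZT12 (-0.59 ± 0.27, adjusted p = 0.703, edgeR). ZT12 library A was lowest and ZT12 libraries B and D came near ZT0 library B. Srebf2, the transcription factor that regulates the pathway, was at -0.09 ± 0.15.

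In fatty acid synthesis 12 genes were measured and the median was 0.04. Acss1, the mitochondrial acetyl-CoA synthetase, had all ZT12 libraries above ZT0 (0.80 ± 0.25) and Acaca, the acetyl-CoA carboxylase, all below (-0.60 ± 0.30). Each was the 1 such member, against 4.58% of all genes above and 5.47% below. Fatty acid oxidation had a median of 0.13 over 18 genes, and Ucp2, the mitochondrial carrier, was at 0.39 ± 0.16 with overlap. Nuclear respiratory chain genes had a median of -0.10 over 30. The 2 members below in all ZT12 libraries were Sdhc and Cox7a2, against 5.47% of all genes. For 8 transcripts of the mitochondrial genome the median was 0.07. Glycolysis and hypoxia genes had a median of -0.10 over 21, where the glycolytic enzyme gene Eno1 was lower in all ZT12 libraries (-0.35 ± 0.13), 2 members in all being so, against 5.47% of all genes. The mitophagy receptor gene Bnip3 was the 1 member higher in all ZT12 libraries (0.76 ± 0.42), against 4.58%. None of these genes passed in edgeR or DESeq2. At an unadjusted p under 0.05 there was 1 higher in fatty acid synthesis, 1 higher in oxidation, 2 lower in the respiratory chain, 0 of the mitochondrial genome and 1 lower in glycolysis. Lipid uptake and storage genes had a median of -0.03 over 19 (1 higher and 0 lower at an unadjusted p under 0.05).

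Genes of the cell cycle leaned upward. Of 20 proliferation genes 16 were positive with a median of 0.35, but 0 passed (3 higher and 0 lower at an unadjusted p under 0.05, 0 in DESeq2). Mki67, the marker of cycling cells, was at 37.2, 30.5 and 43.6 CPM at ZT0 and at 51.0, 53.7 and 70.4 CPM at ZT12 (0.65 ± 0.33, adjusted p = 0.734, edgeR). The times did not overlap for Mki67, Stmn1 and Ccnb1, against 4.58% of all genes, while the replication genes Pcna and Mcm5 were at -0.01 ± 0.16 and 0.01 ± 0.25. Stmn1 and Ccnb1 were below 7 CPM in every library.

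Interferon response genes had a median of -0.08 over 24, and cytosolic ribosomal protein genes -0.02 over 32. FoxO and fasting-responsive genes had 0.12 over 17, and 3 of them, Il7r included, had all ZT12 libraries above ZT0, against 4.58% of all genes. At an unadjusted p under 0.05 that list had 3 higher and 1 lower. Amino acid stress genes had a median of -0.10 over 16, lymphoid or resting genes 0.02 over 16 and activation and effector genes -0.07 over 19. Genes of T cell receptor signalling had a median of -0.07 over 27. Of these, 3 were lower in all ZT12 libraries, among them the phosphatase gene Ptpn6 (-0.51 ± 0.17), against 5.47% of all genes. In all, 2 were higher, among them Cd4 (0.20 ± 0.13), against 4.58%. The kinase gene Lck was at -0.28 ± 0.13 with overlap. Tnf, an inflammatory cytokine gene of the activation list, was at 336, 283 and 256 CPM at ZT0 and at 246, 191 and 217 CPM at ZT12, all below (-0.42 ± 0.17, adjusted p = 0.661, edgeR). In these lists 0 genes passed in edgeR with all libraries and the filter on low counts. Among the alternatives, DESeq2 called Cxcr5 and Oasl2, and edgeR with no filter called Oasl2. Pik3ip1, an inhibitor of PI3 kinase, is in both the FoxO and the glucocorticoid list. It passed with the slope on transcript length, with that slope and the replicate block, and without ZT12 library D.

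Whether a change belonged to VAT was asked by testing the VAT change minus the spleen change, which share no library. VAT and spleen libraries of a time carry the same replicate letters. Whether a shared letter means the same mice is not stated in the labels, and the test treats those libraries as independent. Of 15910 genes 1 passed (0.00629%), and 1324 had an unadjusted p under 0.05. The gene that passed, Dusp1, was not among the 8. Dusp1, a phosphatase that switches off MAP kinases (chromosome 17, 26505590 to 26562128, GRCm38), was at 6765, 7017 and 6780.3 CPM at ZT0 in VAT and at 7394, 5054 and 6726 CPM at ZT12, with the times overlapping. In spleen it was at 57.1, 69.0 and 50.1 CPM at ZT0 and at 135, 168 and 118 CPM at ZT12, without overlap. These levels were far below those of VAT, and the test compared changes on the log2 scale only. The log2 fold change was -0.10 ± 0.16 in VAT and 1.26 ± 0.17 in spleen, a difference of -1.36 ± 0.24 with an adjusted p of 0.0296 in edgeR. That call was lost without any one of VAT ZT0 A, B or C, VAT ZT12 B or D, spleen ZT0 A or C, or spleen ZT12 A or B (0 genes called in each case), and DESeq2 called 11 genes. With the letter within each time as a block shared by the tissues, Dusp1 was at -1.37 with an adjusted p of 0.219 in edgeR.

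**Figure D5:**
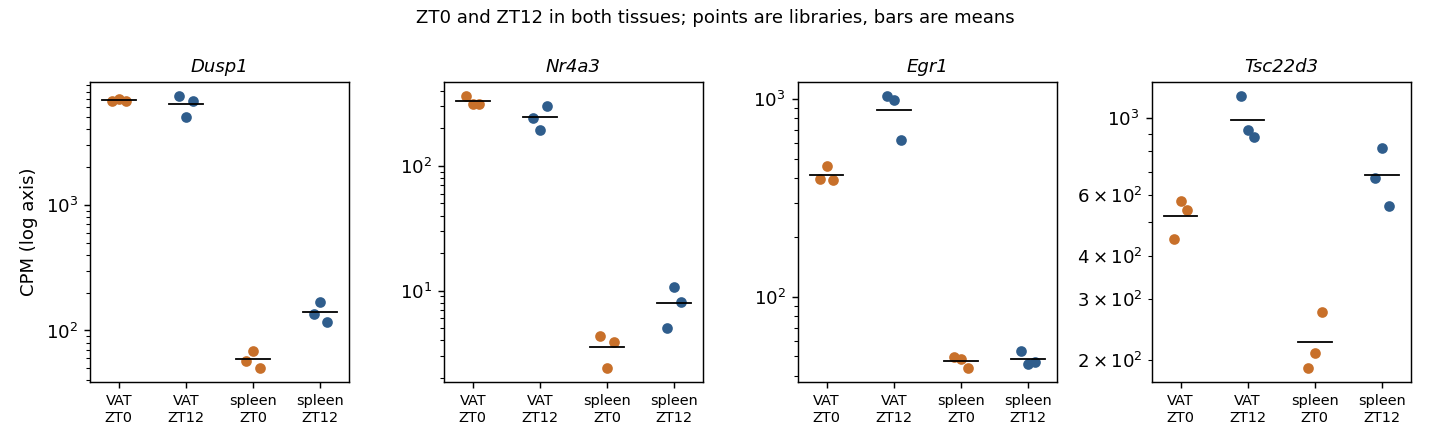
CPM (log axis) of Dusp1, Nr4a3, Egr1 and Tsc22d3 at ZT0 (orange) and ZT12 (blue) in Tregs of VAT and spleen, 1 point per library with a bar at the mean. Dusp1 overlaps between the times in VAT (5054 to 7394 CPM) and not in spleen (50.1 to 69.0 and 118 to 168 CPM), while Tsc22d3 is higher at ZT12 in both tissues.

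None of the 8 genes called in VAT had a change that differed from spleen by this test (adjusted p from 0.410 for Egr1 to 0.985 for Serinc3, edgeR). Serinc3 had a log2 fold change of 0.70 ± 0.14 in VAT and 0.67 ± 0.14 in spleen. Tsc22d3 had 0.92 ± 0.19 in VAT and 1.60 ± 0.19 in spleen, where its 3 ZT12 libraries (672, 819 and 558 CPM) were far above ZT0 (189, 209.6 and 275 CPM). Tef was at 1.31 ± 0.24 and 0.27 ± 0.24, a difference of 1.05 ± 0.34 (adjusted p = 0.500), and Arntl at -1.04 ± 0.20 and -0.14 ± 0.21, a difference of -0.90 ± 0.28 (adjusted p = 0.467). Egr1 was at 43.6 to 53.4 CPM in all 6 spleen libraries and gave 0.04 ± 0.21 there, a difference of 1.04 ± 0.28, which passed with no filter on low counts. These values for Tef, Arntl and Egr1 do not show that VAT and spleen change alike. Each difference is more than 3 SE from 0 and fails only after adjustment over all genes. Nor do they show a change particular to VAT. These genes were picked because their VAT change passed, and that change is part of the difference, which can make it look larger.

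After Dusp1 the smallest adjusted p for the difference were those of 1810013L24Rik, Nr4a3, Chpf, Phkb and G6pc3, between 0.350 and 0.404 in edgeR. Nr4a3, an orphan nuclear receptor induced by antigen, was at 364, 314 and 313 CPM at ZT0 and at 244, 195 and 300.2 CPM at ZT12 in VAT (-0.42 ± 0.19). In spleen it was at 2.39 to 4.34 CPM and 5.01 to 10.7 CPM (1.18 ± 0.32), so both tissues were without overlap and in opposite directions. Phkb, a subunit of phosphorylase kinase, was at 0.99 ± 0.30 in VAT and -0.79 ± 0.30 in spleen. Chpf, which builds chondroitin chains, was at -0.64 ± 0.26 and 1.03 ± 0.29, and G6pc3, a glucose-6-phosphatase, at -0.50 ± 0.27 and 1.10 ± 0.28.

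Some single genes described above had close values in spleen. Hsp90b1 was at -0.54 ± 0.12 in VAT and -0.51 ± 0.12 in spleen, Hsp90ab1 at -0.48 ± 0.13 and -0.54 ± 0.13, Rbm3 at 0.48 ± 0.12 and 0.56 ± 0.12, and Per1 at 0.57 ± 0.15 and 0.53 ± 0.17. The differences ran from -0.08 ± 0.17 for Rbm3 to 0.05 ± 0.18 for Hsp90ab1. Of the lists that leaned one way in VAT, cold-inducible genes had medians of 0.48 in VAT and 0.56 in spleen, and heat shock genes -0.20 and -0.37. The unfolded protein response had -0.20 in VAT and -0.06 in spleen, trafficking receptors -0.26 and -0.07, cholesterol genes -0.15 and -0.01 and proliferation genes 0.35 and 0.06, with the spleen median nearer 0 in each. For other lists the spleen median was the higher: glucocorticoid-responsive genes had 0.20 in VAT and 0.61 in spleen, immediate early genes -0.05 and 0.48, and cytosolic ribosomal protein genes -0.02 and 0.47. No test of a list's difference was made.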

How the data were processed

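The authors deposited raw counts of reads per gene symbol. Per the submitters' processing notes they used STAR 2.7.3a and featureCounts on mm10. Which annotation, strand setting and treatment of multiply mapped reads were used is not given in the sources used here. Antisense partners, overlapping genes and close copies are uncertain for that reason. Per the labels' protocols, polyadenylated RNA was reverse transcribed from an oligo-dT primer, amplified by PCR without molecular identifiers and sequenced as paired reads of 25 nt, so counts include amplified copies.

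The counts were tested with edgeR 4.0.16 in R 4.3.3: filterByExpr over 12 groups, TMM factors, robust quasi-likelihood fits of all 35 libraries, Benjamini-Hochberg adjustment and a threshold of 0.05, tested on simulated data first. No pair of replicates agreed within sampling noise (chi-square per gene 6.81 to 16.9). DESeq2 1.42.0 was an alternative. Named genes were the called genes with a mean of at least 10 CPM and no overlap, all clock genes, from each list up to 5 called or the 2 most abundant members, and the 6 smallest p for the tissue difference. Of the genes so named, 2 are not reported here. Genes, lists and tests were chosen with earlier results of these data known. Positions are from GENCODE M21 (GRCm38).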

Additional observations from a re-analysis of the deposited data

Results flagged for a closer look

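Dusp1 had a change from ZT0 to ZT12 that differed between VAT and spleen by the edgeR quasi-likelihood test of that difference. The VAT change minus the spleen change was -1.356 on the log2 scale (adjusted p = 0.0296), from -0.10 ± 0.16 in VAT and 1.26 ± 0.17 in spleen. Its mean level was 6854 CPM at ZT0 and 6391 CPM at ZT12 in VAT, and 58.7 CPM and 140.2 CPM in spleen. The SD of the VAT ZT0 libraries was 141 CPM. A rise in CPM as large as that in spleen would lie within that spread. The difference holds on the log2 scale and does not by itself show a response particular to either tissue. Over 21 alternatives the difference ranged from -1.49 to -1.21 and passed the threshold in 11.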

How the results depend on the processing

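RLE size factors, library totals and a mean of at least 5 CPM gave 8, 9 and 8 called genes, all 8 reported ones among them, and shifted the median over all genes by no more than 0.1 on the log2 scale. With no filter on low counts 30 genes were called, 21 of them at least 2-fold, and 28 differed between tissues. DESeq2 called 34 genes, 18 at least 2-fold, 4 of the clock list and 11 between tissues. VAT libraries alone gave 3 called genes (Adgre5, Tef and Tsc22d3), 1 at least 2-fold and 1 of the clock, and the 6 libraries alone gave 0, 0 and 0 (507 genes at an unadjusted p under 0.05). The spread is then estimated from fewer samples. Leaving out 1 library at a time gave 0 to 13 called genes, 0 to 7 at least 2-fold, 0 to 2 of the clock, and 0 to 5 between tissues, spleen libraries included as an alternative chosen after seeing the data.

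ZT0 and ZT12 shared the replicate letters A and B only. The deviations of same-letter libraries from their group means correlated at 0.0754 and -0.006, and those of unlike letters at -0.139 to 0.0986. With 3 libraries per group these values cannot settle whether the letters pair the samples, which the labels do not state. With the letter as a replicate block 6 genes were called, 4 of them reported here (Adgre5, Arntl, Tef and Zfp1), and 2 differed between tissues. Same-letter libraries of VAT and spleen within a time correlated at -0.0449 to 0.00905, and those of unlike letters at -0.0465 to 0.0831. These values cannot settle whether a letter links the tissues either. With that letter as a replicate block over tissues, an alternative chosen after seeing the data, 1 gene differed between tissues, Gm10801 in place of Dusp1. With each library's slope on transcript length as a covariate 8 genes were called, 5 of them reported here, and 8 with the replicate block and the slope together, 4 of them reported here. Over 136 single-gene results and 2193 alternative values, 58 values changed sign, none of them for a gene called in either analysis. A call was lost in 68 values and gained in 22, and where no value above shows why, the cause was not tested. Genes of few counts tended to have larger SEs, but abundant genes could have large ones too, such as Itgb7 (0.56 at a mean of 3455 CPM). The parts of depth and of spread between replicates in the SEs were not tested. Per2 had no value with a mean of at least 5 CPM required.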

Other observations

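The T cell receptor β variable segments differed from library to library within each time, and the values below were looked at after the data had been seen. At ZT0 the segment with the most counts was Trbv20 in library A (21.4% of 562 counts on all Trbv genes), Trbv26 in library B (36.9% of 659) and Trbv19 in library C (23.8% of 513). At ZT12 it was Trbv15 in library A (53.7% of 1179), Trbv20 in library B (34.8% of 583) and Trbv1 in library D (80.6% of 1059). Trbv26 had a log2 fold change of -4.09 ± 0.87 between ZT12 and ZT0 and an adjusted p of 0.0838 in edgeR, with a mean of 35.0 ± 36.4 CPM (SD, n = 3) at ZT0, an SD larger than the mean. It was called in DESeq2 and without ZT0 library A.

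Of genes outside the lists, Zfp36l2, which encodes an mRNA decay factor, came close to the threshold at 0.91 ± 0.20 in VAT (adjusted p = 0.0825, edgeR), with ZT0 libraries averaging 66.6 ± 1.13 CPM and ZT12 libraries 125 ± 25.1 CPM (SD, n = 3). Zfp36l2 passed with no filter and in DESeq2, and in spleen it was at 1.05 ± 0.21. Cd96, an adhesion receptor of T and NK cells, was lower at ZT12 (-1.27 ± 0.29, adjusted p = 0.102, edgeR) and passed with the replicate letter as a block, with no filter, in DESeq2 and without ZT12 library D. Gata1, a factor of erythroid and mast cells, was at a mean of 0.649 CPM at ZT0 and 6.44 ± 5.23 CPM at ZT12 (adjusted p = 0.146, edgeR), and passed in DESeq2 and without ZT12 library D. Beside it the summed erythroid markers were 1.93 and 5.80 CPM in mean, and their part in the Gata1 value was not tested.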
